A study of Drosophila melanogaster with 4 samples.

Results

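The genes described here encode 6 enzymes of purine synthesis and salvage, namely Prps, Paics, CG11089, Adss, Adgf-C and Adgf-E. They were picked by name, matched by gene symbol or NCBI gene ID, with their values in these data already known, and are 6 of the 1449 genes that had a value on any array. The array results of these genes are therefore a description and carry no test. The question of the study was which transcripts differ in the head of the fly Drosophila melanogaster after chronic feeding on pilocarpine, a drug that activates muscarinic acetylcholine receptors and is given to rodents to provoke seizures.

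The study compared 2 groups of unmated Oregon-R males, wild type and 3 to 4 days old at the start. The treated flies fed for 7 days on food with 1.5 mg/ml pilocarpine, and the untreated flies for 7 days on normal food. Heads were pooled, in 8 pools from vials stocked with 30 flies, so every value is an average over many animals and over all cell types of the head. Each of the 4 arrays carried a treated and an untreated pool in different dyes, so the 4 arrays are 4 biological replicates of the same comparison. The treated RNA was in Cy5 (red) on replicates 1 and 2 and in Cy3 (green) on replicates 3 and 4.

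Purine nucleotides are built stepwise on a ribose phosphate. Prps makes the activated ribose phosphate that starts the route, Paics catalyses middle steps, and CG11089 is annotated to the closing steps, which yield inosine monophosphate (IMP), the branch point of the pathway. Adss takes IMP towards AMP. Adgf-C and Adgf-E belong to the adenosine deaminase-related growth factors, a family of secreted proteins of which the best studied members convert extracellular adenosine to inosine. Purines are needed for nucleic acids, for ATP and GTP and, in the fly eye, for pteridine pigments made from GTP.

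Values are log2 ratios of the 2 channels as the authors normalized them, with the median of each array set to 0. A ratio gives a difference between treated and untreated heads and not the level of a transcript. The labels do not say which channel is the numerator. In the red-over-green reading, which is the scanner software's default and is used here unless stated, the ratios of replicates 3 and 4 are turned in sign to give treated over untreated. In the as-deposited reading the treated RNA is the numerator on every array and no sign is turned. Neither reading is settled by the data. Across the 748 genes on all 4 arrays, the Pearson correlations as deposited between arrays of opposite dye orientation were 0.09, 0.24, -0.16 and -0.41. Of the pairs with the same orientation, replicates 1 and 2 correlated at -0.08, and replicates 3 and 4 correlated at 0.45. In the red-over-green reading replicate 1 correlated at -0.08, -0.09 and -0.24 with replicates 2, 3 and 4, so it ran weakly against the other arrays. Replicate 2 then correlated at 0.16 with replicate 3 and at 0.41 with replicate 4. The sign of replicates 3 and 4, and with it the mean of every gene below, depends on this reading.

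All 6 genes had a value on all 4 arrays after the authors' filter on spot quality. Each was measured by a single pair of duplicate spots. Adss had 3 listed pairs, of which 1 gave values. The 3 enzymes on the route to IMP were above the array median on all 4 arrays in the red-over-green reading, and none of the other 3 genes was. Of the 748 genes on all 4 arrays, 55 (7.35%) were above the median on all of them and 51 (6.82%) were below it on all. Because the genes were chosen for this contrast, nothing is read from that share. In the as-deposited reading the 3 enzymes were above the median on replicates 1 and 2 and below it on replicates 3 and 4. In these whole-head pools a change in the number of cells of a type and a change in RNA per cell cannot be told apart.

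**Figure D1:**
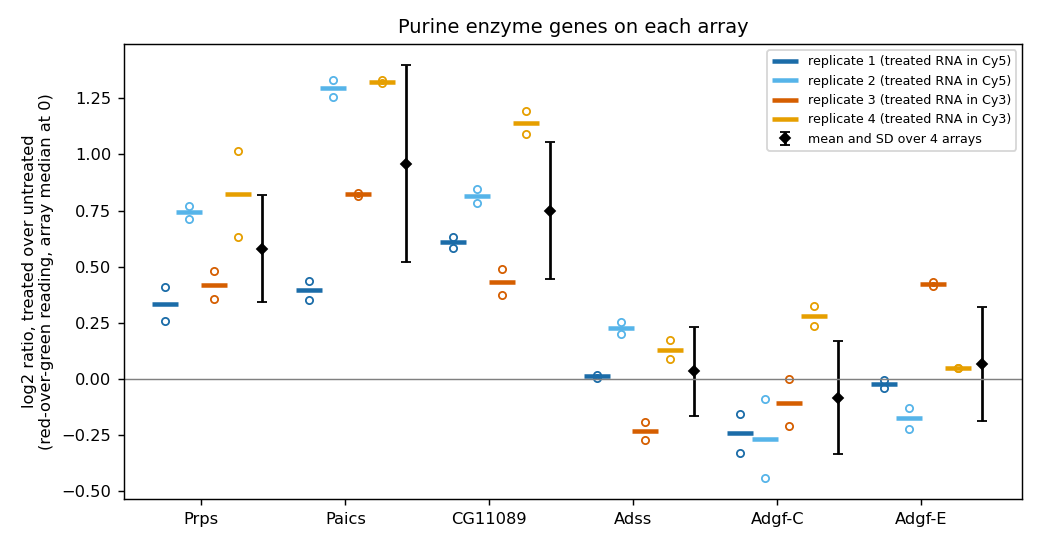
Log2 ratio of treated over untreated heads for each purine enzyme gene, in the red-over-green reading with array medians at 0. Open circles are the duplicate spots, coloured bars their mean on each array, and black diamonds the mean and SD over 4 arrays. Prps, Paics and CG11089 lie above 0 on every array, between 0.34 and 1.32, while Adss, Adgf-C and Adgf-E lie on both sides of 0.

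Prps (NCBI gene 39132), the phosphoribosyl pyrophosphate synthetase, had log2 ratios of 0.34, 0.74, 0.42 and 0.82 on replicates 1 to 4. Its mean was 0.58 ± 0.24 (SD, n = 4), a ratio of 1.49. Replicates 2 and 4 were the higher ones. The gene was above 90.1%, 95.0%, 84.8% and 96.2% of the genes on replicates 1 to 4, and as deposited above 15.2% on replicate 3 and 3.69% on replicate 4. On replicate 4 its duplicate spots were 0.38 apart, the widest gap of any of the 6 genes, and on the other arrays at most 0.15.

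Paics (NCBI gene 32228), a bifunctional enzyme of the middle of the route, had log2 ratios of 0.40, 1.29, 0.82 and 1.32 on replicates 1 to 4. The mean was 0.96 ± 0.44 (SD, n = 4), a ratio of 1.94. In this reading that mean was the highest of the 6 genes and ranked 3rd of the 748 genes, and as deposited it ranked 4th of the 6 and 549th of the 748. Replicate 1 was the lowest and replicate 3 the next, and all 4 arrays lay above 0. Its duplicate spots agreed within 0.09 on every array. On replicates 2 and 4 it was above 99.1% of the genes on each array, on replicate 3 above 96.0% and on replicate 1 above 93.5%. As deposited it was above 3.95% of the genes on replicate 3 and 0.803% on replicate 4.

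CG11089 (NCBI gene 42973), which the gene table also lists as atic, had log2 ratios of 0.61, 0.81, 0.43 and 1.14 on replicates 1 to 4. The mean was 0.75 ± 0.30 (SD, n = 4), a ratio of 1.68. Here replicate 3 was the lowest array, whereas replicate 1 was the lowest for Paics and Prps. CG11089 was above 98.7%, 96.6%, 85.2% and 98.6% of the genes on replicates 1 to 4, and as deposited above 14.7% on replicate 3 and 1.37% on replicate 4. Taking for each gene its lowest value over the 4 arrays, CG11089 ranked 2nd, Paics 3rd and Prps 6th of the 748 genes in the red-over-green reading, and 730th, 737th and 694th as deposited. In the first reading 6 genes (0.802%) had a lowest value at or above that of Prps, the 3 enzymes among them. Because the enzymes were chosen with these values known, nothing is read from these ranks or this share.

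In the red-over-green reading these 3 enzymes shared their pattern over arrays. For each of them replicates 2 and 4 gave higher ratios than replicates 1 and 3. The pattern was not particular to them. The genes apolpp, Desat1, BomT3 and Miox, described below, also had replicates 2 and 4 above replicates 1 and 3. Over the 748 genes replicates 2 and 4 correlated at 0.41 in that reading. How many of the 748 genes had this order of arrays was not counted. The 3 enzymes were chosen with their values known, so nothing is read from the shared order. As deposited replicate 2 was the highest and replicate 4 the lowest array for each of the 3 enzymes. In the red-over-green reading the mean of the 3 enzymes was 0.45, 0.95, 0.56 and 1.10 on replicates 1 to 4. The arrays themselves differed in spread. The SD over all genes was 0.27 on replicate 1, against 0.42, 0.44 and 0.40 on replicates 2 to 4. With the arrays scaled to the same spread the means were 0.94 for Paics, 0.78 for CG11089 and 0.58 for Prps.

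Dye orientation gave similar sizes in the red-over-green reading. The mean of Paics was 0.84 over the 2 arrays with treated RNA in Cy5 and 1.07 over the 2 arrays with treated RNA in Cy3. For CG11089 these means were 0.71 and 0.79, and for Prps 0.54 and 0.62. The dye coefficient of the red-over-green reading equals the mean of the as-deposited reading. It was -0.11 for Paics, -0.04 for CG11089 and -0.04 for Prps.

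**Figure D2:**
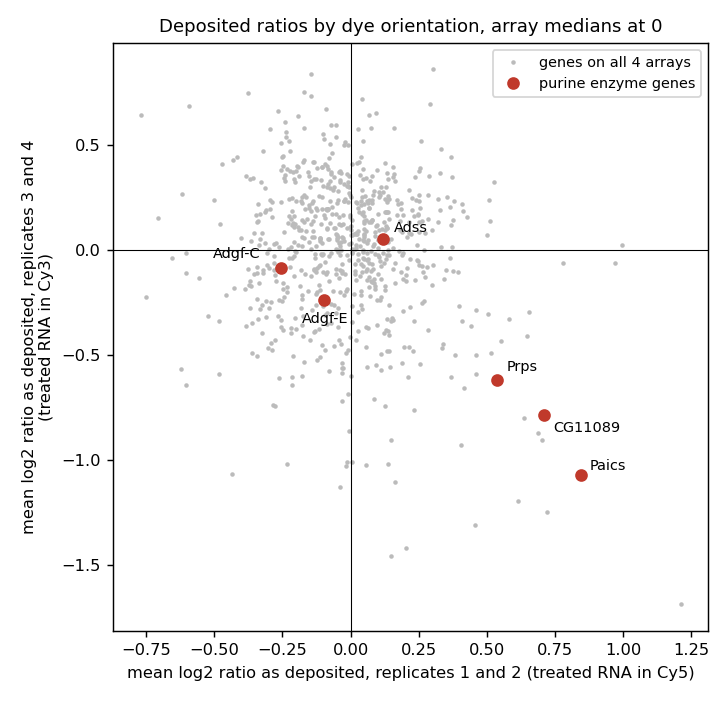
Mean deposited log2 ratio of each gene over replicates 1 and 2 (horizontal axis) and over replicates 3 and 4 (vertical axis), array medians at 0, for 748 genes (grey) and the 6 purine enzyme genes (red). In the red-over-green reading a gene higher in treated heads lies at the lower right, as Paics, CG11089 and Prps do; in the as-deposited reading it would lie at the upper right, where none of the 6 genes but Adss lies.

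As deposited and centred, Paics was at 0.40 and 1.29 on replicates 1 and 2 and at -0.82 and -1.32 on replicates 3 and 4. Its mean in that reading was -0.11 ± 1.18 (SD, n = 4). CG11089 was then at -0.04 ± 0.92 and Prps at -0.04 ± 0.71 (SD, n = 4 for each). The SD of each of the 3 enzymes was more than its mean in that reading and less than its mean in the red-over-green reading. In the plot by dye orientation, 9 of the 748 genes lay at least as far to the lower right as Prps on both axes. They were Paics, CG11089, Prps, apolpp, Desat1, BomT3, Miox, mRpS34 and Cyp28d1. At the same distances 2 genes lay at the upper left, 1 at the lower left and 0 at the upper right. This region was drawn after the values were seen, with its edge at Prps, and was not tested. Prps, Paics and CG11089 were chosen with their values known, so neither these counts nor the SDs settle the reading.

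Adss (NCBI gene 42466), adenylosuccinate synthetase, stayed close to the array medians. It was at 0.01, 0.23, -0.23 and 0.13 on replicates 1 to 4, a mean of 0.03 ± 0.20 (SD, n = 4). The arrays lay on both sides of 0, and the duplicate spots agreed within 0.09. As deposited its mean was 0.09 ± 0.18 (SD, n = 4), so for this gene both readings gave means smaller than the SD.

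Adgf-C (NCBI gene 41680) was at -0.24, -0.27, -0.10 and 0.28 on replicates 1 to 4, with a mean of -0.08 ± 0.25 (SD, n = 4). Replicate 4 was the array above 0. The duplicate spots differed by 0.35 on replicate 2 and 0.21 on replicate 3, about as much as the arrays differed among themselves. As deposited the mean was -0.17 ± 0.18 (SD, n = 4). In the gene table Adgf-C lies next to its relative Adgf-D, which had a listed probe but no value on any array.

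Adgf-E (NCBI gene 36627) was at -0.02, -0.18, 0.42 and 0.05 on replicates 1 to 4, with a mean of 0.07 ± 0.25 (SD, n = 4). Replicate 3 stood highest, and its duplicate spots there were 0.02 apart. As deposited Adgf-E was below the array median on all 4 arrays, between -0.42 and -0.02, with a mean of -0.17 ± 0.18 (SD, n = 4). In that reading 68 of the 748 genes (9.09%) were below the median on all 4 arrays and 44 (5.88%) above it on all. Among the 6 genes Adgf-E was the 1 gene with the same sign on all 4 arrays as deposited.

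**Figure D3:**
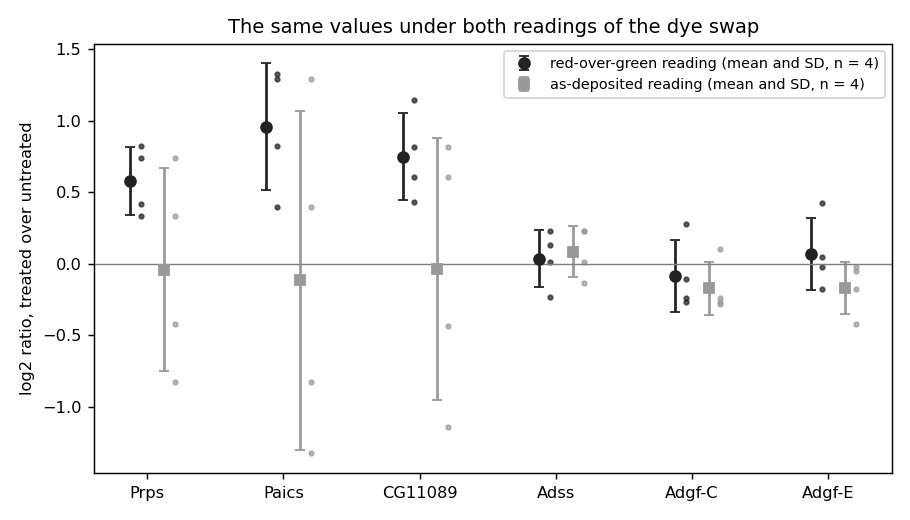
Mean and SD over 4 arrays of the log2 ratio of treated over untreated heads for the 6 purine enzyme genes, with single arrays as small points, in the red-over-green reading (black circles) and the as-deposited reading (grey squares). Means of 0.96, 0.75 and 0.58 for Paics, CG11089 and Prps in the first become -0.11, -0.04 and -0.04 in the second, with SDs of 1.18, 0.92 and 0.71.

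The order of the mean ratios in the red-over-green reading was Paics, CG11089, Prps, Adgf-E, Adss and Adgf-C. As deposited it was Adss, CG11089, Prps, Paics, Adgf-E and Adgf-C, from 0.09 down to -0.17. The differences that follow are for the red-over-green reading. Within arrays Paics exceeded CG11089 by 0.21 ± 0.31 (SD, n = 4), with replicate 1 in the opposite order, so these neighbours did not differ beyond their spread. CG11089 exceeded Prps on 4 of 4 arrays, by 0.17 ± 0.15 (SD, n = 4). The gaps were 0.27, 0.07, 0.01 and 0.32 on replicates 1 to 4. Beside them the duplicate spots of Prps were 0.15, 0.055, 0.12 and 0.38 apart, so on replicates 3 and 4 the gap was within the duplicate difference. Prps exceeded Adgf-E by 0.51 ± 0.42 (SD, n = 4), with the same value on replicate 3 to within 0.01. Adgf-E, Adss and Adgf-C did not differ from each other beyond their spread. On replicates 1, 2 and 4 the lowest of the 3 enzymes on the route to IMP (0.34, 0.74 and 0.82) was above the highest of the other 3 genes (0.01, 0.23 and 0.28). On replicate 3 the groups met, at 0.42 for both Prps and Adgf-E. As deposited the order on replicate 4 was the reverse, with the 3 enzymes between -1.32 and -0.82 and the other genes between -0.28 and -0.05.

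The median of the 6 mean ratios was 0.32, beside -0.01 over all 1444 genes on at least 3 arrays. As deposited these medians were -0.08 and 0.00. The 6 genes were chosen with their values known, so nothing is read from this comparison. In the red-over-green reading the median fell between Prps (0.58) and Adgf-E (0.07), where none of the 6 genes lay. In the fit over all genes 2 of 1444 genes (0.139%) passed at an adjusted p under 0.05 (limma, Benjamini-Hochberg), both higher, namely apolpp and Obp19c. None of the 6 purine genes was among them, which is not read as a test, since they were chosen with their values known. In the as-deposited reading no gene passed (0 of 1444), with 126 at an unadjusted p under 0.05 (limma). The count of 2 rested on single arrays. Leaving out replicate 1 gave 5 genes, and leaving out replicate 3 gave 18. No gene passed when replicate 2 or replicate 4 was left out, each time by limma.

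Other genes of purine metabolism could not be followed. Of 26 further genes listed for de novo synthesis, the AMP and GMP branches, salvage and breakdown, 14 had a listed probe and 0 had a value on any array. The genes with a probe but no value included Prat, which catalyses the committed step, Pfas and Adsl of the de novo route, and Adgf-A, Adgf-B, Adgf-D and Ada of adenosine deamination. The enzymes that take IMP to GMP, ras and bur, had no listed probe. The 3 enzymes on the route to IMP are thus the measured ones among the 8 de novo genes listed, and the GMP branch was not observed.

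Of 43 genes of connected pathways, 6 were measured on at least 3 arrays, and none passed in either direction (limma; 0 of 6 at an unadjusted p under 0.05, also with robust eBayes). Over all genes 107 of 1444 (7.41%) were under that p, and 106 with robust eBayes, so a count of 0 among 6 genes does not set them apart. Ahcy, which releases adenosine from S-adenosylhomocysteine, was at 0.14 ± 0.31 (SD, n = 3; limma adjusted p = 0.956). The deoxynucleoside kinase gene dnk was at -0.16 ± 0.21 (SD, n = 3; limma adjusted p = 0.937). Taldo, the transaldolase of the pentose phosphate pathway that supplies ribose phosphate, was at 0.25 ± 0.59 (SD, n = 3; limma adjusted p = 0.914). Its value was 0.93 on replicate 4 and below 0 on replicates 1 and 3. In the as-deposited reading these 3 genes were at 0.18, 0.11 and -0.32.

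Among the 6 connected genes the means of Ts, the thymidylate synthase of pyrimidine deoxynucleotide synthesis, differed most between the readings. It was at -0.21, 0.81, -0.75 and -0.97 on replicates 1 to 4, a mean of -0.28 ± 0.79 (SD, n = 4; limma adjusted p = 0.914). As deposited it was at 0.58 ± 0.53 (SD, n = 4; limma adjusted p = 0.560), and was the 1 gene of the connected pathways at an unadjusted p under 0.05 in that reading. Of the pteridine genes that draw on GTP, Pu, the GTP cyclohydrolase, was at -0.15 ± 0.21 (SD, n = 4; limma adjusted p = 0.921) and pr at 0.03 ± 0.53 (SD, n = 3; limma adjusted p = 0.986). As deposited these were at -0.16 and 0.04.

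Genes were also ranked by how near their ratios over the 4 arrays lay to those of Paics. CG11089 and Prps were chosen with these values known, so nothing is read from their ranks. Likeness was measured as the root mean square difference over the 4 arrays, which is the same in both readings, and ran from 0.18 to 1.75 over 747 genes with a median of 1.08. The 5 nearest were BomT3, an immune-induced peptide gene, at 0.18, the inositol oxygenase gene Miox at 0.26, the mitochondrial ribosomal protein gene mRpS34 at 0.32, CG13868 at 0.33 and CG11089 at 0.34. Prps ranked 8th at 0.43, Adss 216th at 0.98, Adgf-E 265th at 1.01 and Adgf-C 396th at 1.09. On replicate 1 the other four of the nearest genes were at 0.15, 0.14, -0.13 and -0.07, below Paics (0.40) and CG11089 (0.61).

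**Figure D4:**
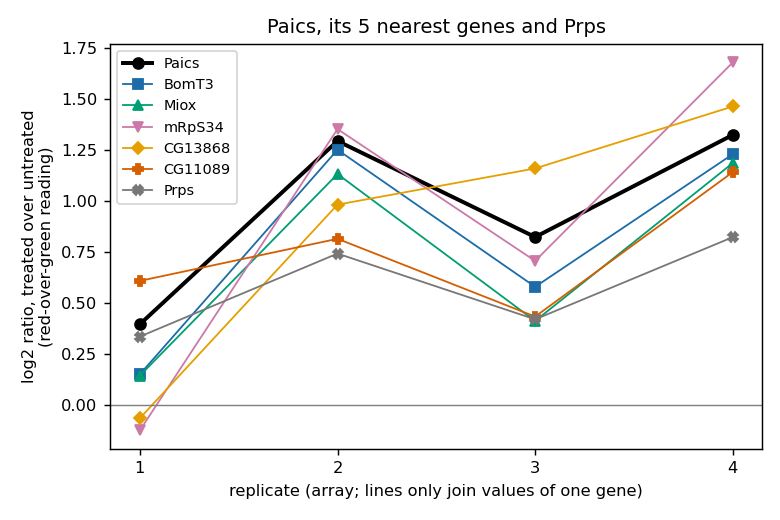
Log2 ratio of treated over untreated heads on replicates 1 to 4, in the red-over-green reading with array medians at 0, for Paics (black), the 5 genes nearest to it and Prps. All 7 genes are between 0.41 and 1.68 on replicates 2 to 4, while on replicate 1 they range from -0.13 to 0.61.

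Markers of cell types of the head, and of tissues outside it, were set beside these values. Of 13 fat body markers 8 were measured, 3 of them on all 4 arrays. Of these 3 apolpp and Desat1 were above the array median on all 4, beside the 7.35% of all genes given above. The third, Cyp4d21, was at -1.22, 0.36, -0.20 and 0.56 on replicates 1 to 4. The marker lists were chosen with earlier results of these data known, so nothing is read from that share. The lipoprotein gene apolpp was at 0.48, 1.94, 1.53 and 1.85 on replicates 1 to 4 (mean 1.45 ± 0.67, SD, n = 4; limma adjusted p = 0.0274, and -0.24 as deposited). The desaturase gene Desat1 was at 0.63, 0.75, 0.39 and 1.35 (mean 0.78 ± 0.41, SD, n = 4; limma adjusted p = 0.177, and -0.09 as deposited). The other 6 fat body markers had means between -0.12 and 0.16. As deposited these ran from -0.55 to 0.01, with Lsd-2 and sxe2 (-0.55 and -0.48) at an unadjusted p under 0.05 and none passing (limma). The part of the fat body in the ratios of the purine enzymes was not tested.

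The remaining marker lists held few measured genes. Of 13 head markers Arr1, trpl and Gs2 were measured, with means between -0.05 and 0.24, and between 0.09 and 0.19 as deposited. Of 9 haemocyte markers Col4a1 alone was measured, at 0.13, and at -0.34 as deposited. Of 8 testis markers ocn alone was measured, at 0.52, and at 0.60 as deposited. Of 12 muscle markers 5 were measured, between -0.41 and 0.09, and between -0.24 and -0.03 as deposited. Of 9 digestive markers 3 were measured, between -0.26 and 0.10, and between -0.03 and 0.46 as deposited. None of these genes passed in either reading (limma). The unadjusted p (limma) was under 0.05 for ocn in both readings, for the muscle marker Mlc1 in the red-over-green reading and for the digestive marker Mal-A3 as deposited. Over all 1444 genes 107 were under that p in the red-over-green reading and 126 as deposited. Ratios of dye channels do not show whether a tissue's markers are abundant, so the labelled tissue could be checked only by which markers had a value. That check was limited by the probes. A listed probe was present for 6 of 13 head, 13 of 13 fat body and 7 of 9 haemocyte markers. For testis, muscle and digestive markers these counts were 4 of 8, 6 of 12 and 4 of 9. The head markers Arr2, trp and nSyb had a listed probe but no value.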

How the data were processed

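The authors quantified the scanned slides with GenePix Pro 6.0 and used Acuity 4.0 for ratio-based normalization, per the labels and design text. The authors filtered spots on saturation, flags, uniformity and signal over background, and tested with SAM 3.0, which was not rerun. The deposited values are log2 ratios; the base was read from a ceiling of 16.61, the log2 of 100000, found in 11 cells that were left out. No scanner intensity was analysed here.

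Duplicate spots were averaged and each array was centred on its median over probes (-0.14, -0.48, -0.29 and -0.42 for replicates 1 to 4 before centring). Replicates 1 to 4 had 6257, 4428, 6392 and 5527 spots with a value, and the number of arrays limits the precision. Of 3236 probes with a value 1510 listed 1 gene, 13 several and 1713 none. Old symbols were updated through NCBI gene IDs, which failed for 29 probes. Probes of a gene were averaged. Coordinates are not given, since the build of the array's design is not given in the sources used here.

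Under R 4.3.3, limma 3.58.1 (moderated test of the mean against 0, two-sided, Benjamini-Hochberg) was run on the 1444 genes with a value on 3 or more arrays, after the code was tested on simulated data. The members and all gene lists were chosen with earlier results of these data known. Genes named are the 6 members, measured genes of the purine and connected pathways, the 5 genes nearest to Paics, and markers. The genes of the lower right region and Obp19c were named after their values were seen. Alternatives were the other reading of the dye swap, no centring, scaling, complete genes, 1 probe per gene, single spots, a dye covariate, robust eBayes and leaving out each array.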

Additional observations from a re-analysis of the deposited data

Results flagged for a closer look

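Of the 16 named members, connected pathway genes and genes nearest to Paics, those on all 4 arrays were searched for an array far from the other three, in both readings (24 sets of 4 values). One was found. In the as-deposited reading Adgf-C was at 0.10 on replicate 3 while the other arrays lay between -0.28 and -0.24. Chance flags about 1 in 20 such sets. The duplicate spots of Adgf-C on replicate 3 differed by 0.21.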

How the results depend on the processing

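The means of Adss, Adgf-C and Adgf-E moved by less than their SD under every alternative run for them. Those of Paics, CG11089 and Prps did so under 6 alternatives each, and also whichever array was left out. They moved by more than their SD in the as-deposited reading alone, to -0.11, -0.038 and -0.041. Leaving out each array gave 0.84 to 1.15 for Paics, 0.62 to 0.85 for CG11089, 0.50 to 0.66 for Prps, -0.03 to 0.12 for Adss, -0.20 to -0.02 for Adgf-C and -0.05 to 0.15 for Adgf-E. The count of 2 genes passing over all genes (limma) became 0 as deposited, 1 with 1 probe per gene, 1 with odd spots and 0 with even spots. It lay between 0 and 18 with an array left out. With only the 748 genes on all 4 arrays it was 1, and on those same genes 4 with the dye covariate. No gene of the connected pathways passed under any alternative run. The ratio of each array pairs a treated with an untreated pool, so the limma test of the mean ratio against 0 is itself the paired analysis, and no unpaired one was run. Which channel is the numerator of the deposited ratios is not known and limits every direction given for the 3 enzymes on the route to IMP.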
